A study of Homo sapiens with 8 samples.

Results

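The S100 proteins are small calcium-binding proteins, and 10 of their genes were described here across 8 RNA libraries of LY2 breast cancer cells: S100A4, S100A6, S100A8, S100A9, S100A10, S100A11, S100A13, S100A14, S100A16 and S100P. They were taken by symbol from a table of 63677 genes, and each symbol matched a single row. LY2 is an endocrine-resistant derivative of the estrogen receptor-positive line MCF-7. All cells stably carried a short hairpin RNA under puromycin at 500 ng/mL, either a non-targeting one (shNT, 4 libraries) or one against NCOA1, which encodes the nuclear receptor coactivator SRC-1 (shSRC1, 4 libraries). Both groups were grown in medium with 4-hydroxytamoxifen, the active form of tamoxifen, went through 72 h of steroid depletion and then received 4-hydroxytamoxifen for 8 h, so no library shows the cells without the drug. The labels name a single cell line and do not say how many hairpins or clones were used. They do not state that replicates came from separate cultures either. All p-values therefore reflect only how much these libraries scatter, and that scatter may be technical.

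S100 proteins carry a pair of EF-hand calcium-binding loops and mostly act as dimers that expose a binding surface for a target protein when calcium rises. Inside cells they bind annexins, cytoskeletal proteins and enzymes, and some are released and bind receptors such as RAGE, the product of AGER. S100A8 and S100A9 join to form calprotectin, an abundant protein of neutrophils and monocytes that stressed epithelia also make. Several S100 genes are studied in breast cancer, where S100A4, S100P and S100A14 have been linked to cell movement and invasion. Most of the family lies in a single cluster on the long arm of chromosome 1, and S100P lies on chromosome 4.

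RefSeq promoter sequences (GRCh38.p14, 250 bases before to 50 bases after a transcript start) were available for all 10 genes, in 15 windows because S100A8, S100A13 and S100A16 have several starts. They are shown for S100A8 and S100A9, which were higher in shSRC1, for S100A14 and S100P, which were lower, and for S100A10, an abundant gene that did not pass the test. Capitals mark TATAAA, the letters of a TATA box, and GGGCGG, those of a GC box, read on either strand. The S100A8 window is chr1:153391024-153391323 on the minus strand, the second of its 3 windows. The S100A9 window is chr1:153357604-153357903 on the plus strand. Those of S100A14 and S100A10 are chr1:153616276-153616575 and chr1:151993810-151994109 on the minus strand, and that of S100P is chr4:6693628-6693927 on the plus strand.
S100A8: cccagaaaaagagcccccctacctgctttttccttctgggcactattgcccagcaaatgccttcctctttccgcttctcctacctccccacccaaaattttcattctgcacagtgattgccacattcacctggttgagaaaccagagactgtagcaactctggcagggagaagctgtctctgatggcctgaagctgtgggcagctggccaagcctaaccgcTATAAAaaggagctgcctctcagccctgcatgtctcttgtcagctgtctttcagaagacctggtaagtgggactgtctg
S100A9: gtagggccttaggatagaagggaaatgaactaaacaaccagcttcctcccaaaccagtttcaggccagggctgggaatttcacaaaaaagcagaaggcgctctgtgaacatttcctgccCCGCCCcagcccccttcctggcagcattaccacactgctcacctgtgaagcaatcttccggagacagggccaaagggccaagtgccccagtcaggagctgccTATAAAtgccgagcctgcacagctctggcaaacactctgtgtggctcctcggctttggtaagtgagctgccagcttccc
S100A14: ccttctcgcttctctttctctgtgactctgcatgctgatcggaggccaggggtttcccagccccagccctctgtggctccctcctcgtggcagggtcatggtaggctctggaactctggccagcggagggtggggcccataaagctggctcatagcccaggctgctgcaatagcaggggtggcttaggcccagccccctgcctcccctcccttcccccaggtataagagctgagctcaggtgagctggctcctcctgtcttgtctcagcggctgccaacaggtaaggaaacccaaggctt
S100P: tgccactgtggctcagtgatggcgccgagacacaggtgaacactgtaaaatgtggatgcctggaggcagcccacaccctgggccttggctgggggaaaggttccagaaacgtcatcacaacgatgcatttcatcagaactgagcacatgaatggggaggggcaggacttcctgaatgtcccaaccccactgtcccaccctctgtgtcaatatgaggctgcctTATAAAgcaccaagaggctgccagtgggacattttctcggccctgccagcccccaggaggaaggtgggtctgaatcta
S100A10: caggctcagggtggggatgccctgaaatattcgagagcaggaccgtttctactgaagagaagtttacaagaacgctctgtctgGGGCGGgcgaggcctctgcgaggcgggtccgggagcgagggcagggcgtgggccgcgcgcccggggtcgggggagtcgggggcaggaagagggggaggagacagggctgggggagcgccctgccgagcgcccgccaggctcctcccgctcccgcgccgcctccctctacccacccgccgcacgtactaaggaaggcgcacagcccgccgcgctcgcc

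TATAAA was found in 6 of the 15 windows, belonging to 5 of the 10 genes, and in 11.5% of all 35116 windows. It began 29 bases before the start in the second S100A8 window and in S100A9, 28 in S100P, 31 in S100A4 and 29 in 1 of the 3 S100A13 windows. The third S100A8 window held the same TATAAA, 126 bases before its own start, and the first S100A8 window held none. S100A6, S100A10 and S100A11 had no TATAAA and held 31, 32 and 22 CG dinucleotides, against a median of 14 over all windows and 2 to 5 in the windows of S100A8, S100A9, S100A14 and S100P. S100A14 and S100A16 had no TATAAA either, and the S100A16 windows held 3 and 8 CG dinucleotides. The S100A13 windows held 19, 11 and 12, and the S100A4 window held 8. GGGCGG was found in 6 of the 15 windows, each of another gene, and in 45.0% of all windows, so its share among these windows was no higher. The C/EBP core TTGCNNAA was found only in the S100A11 window among the 10 genes, and in 10.5% of all windows. The AP-1 site TGACTCA, the STAT site TTCNNNGAA and the full estrogen response element, GGTCA and TGACC with 3 bases of any kind between them, were in none of the 15 windows, and in 4.95%, 7.66% and 0.0570% of all windows. Both strands were searched. Matches to different motifs did not overlap in the 15 windows, while 2 of the 3 GGGCGG matches of S100A6, at 79 and 75 bases before the start, overlapped each other. A match in these letters is a description and not a binding site, and no match says only that the letters are not in that window.

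Reads counted in genes, summed over all genes, numbered 58459196 to 67022036 in the shNT libraries and 33771775 to 66248960 in the shSRC1 libraries. The fewest were in shSRC1 replicate 2. Reads not counted in a gene are not included. Values are size-factor normalized reads, that is, reads divided by a scaling factor of each library. NCOA1 itself stood at 4381, 4212, 4467 and 4525 in the shNT libraries and at 1927, 1895, 2215 and 2107 in the shSRC1 libraries, so its RNA fell to 46.3% of the shNT level (log2 fold change -1.11, limma adjusted p = 2.25e-07). The 12 luminal breast markers checked were all tested, and their summed level was 435651 to 562772 in shNT and 671924 to 744478 in shSRC1. Of them KRT19, KRT8, XBP1 and KRT18 rose, by log2 fold changes of 0.47 to 0.68, and none fell. That is 33.3% called, against 23.2% of all tested genes, and the median log2 fold change of the 12 was 0.12. Of 13 genes of the mitochondrial genome none rose and MT-CO1 and MT-ND1 fell, by 0.43 and 0.38 on the log2 scale, or 15.4% called. ESR1, the estrogen receptor gene, had means of 20472 ± 349 and 18728 ± 946 (SD, n = 4 each) and did not pass the test (limma adjusted p = 0.233).

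The 10 genes covered a wide range of levels. Per kilobase of annotated exon, the order of mean levels in shNT was S100A11 (39166 normalized reads per kb), S100A10 (13010), S100A6 (5015), S100A16 (2221), S100A13 (1761), S100A14 (404), S100P (267), S100A9 (67.9), S100A4 (17.3) and S100A8 (8.58). The ranges over the 4 libraries overlapped only between S100A16 and S100A13 and between S100A4 and S100A8 among neighbours in this order. S100A11, which binds annexin A1, and S100A10, which binds annexin A2, thus led the family, and the calprotectin genes were near its lower end. In shSRC1, S100A8 stood at 42.9 and S100A4 at 15.95 normalized reads per kb, and S100A9 at 227 was near S100P at 201.

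Between shSRC1 and shNT, S100A8 and S100A9 rose, S100A14, S100A13 and S100P fell, and the other 5 genes did not pass the test. The S100A13 and S100P calls were lost in 6 and 7 of 19 alternative settings of the test. In limma, with an adjusted p under 0.05 over all tested genes as the threshold, 23.2% of 19559 tested genes passed, 12% higher and 11.2% lower. All 10 genes met the minimum of 10 normalized reads in at least 4 libraries. S100A8 met it only with its shSRC1 libraries, since it reached 10 in 2 shNT libraries. The groups did not overlap in 3 of the 10 genes, S100A8, S100A9 and S100A14, against 29% of all tested genes. The median log2 fold change of the 10 genes was -0.15, and that of all tested genes was -0.0025. With 10 genes chosen with earlier results of these data in view, these shares are a description.

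**Figure D1:**
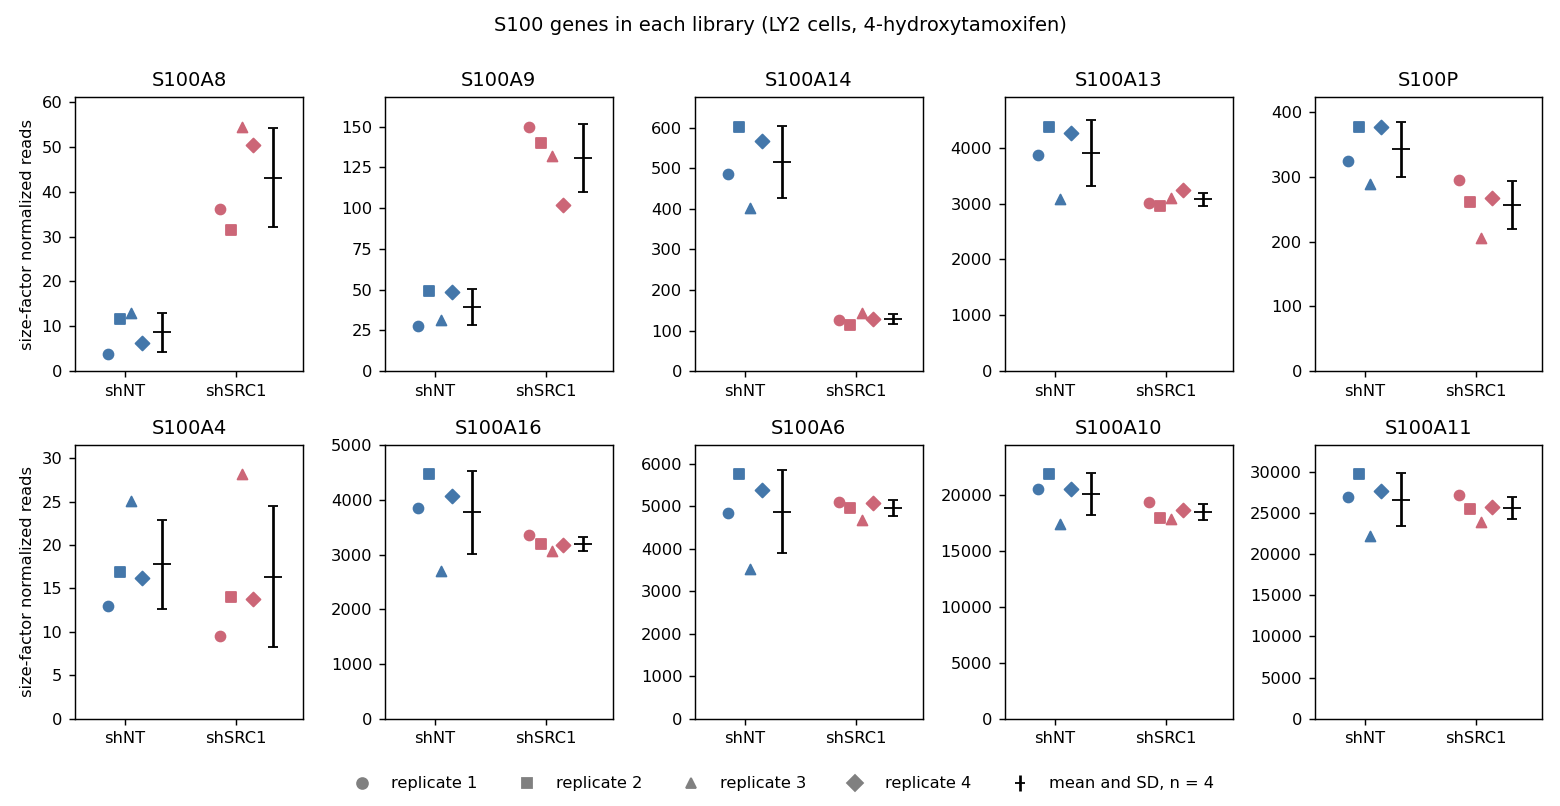
Size-factor normalized reads of each S100 gene (vertical axes, each from 0) in the 4 shNT and 4 shSRC1 libraries, with 1 symbol per replicate and black bars for the mean and SD of each group. S100A8 and S100A9 are higher in every shSRC1 library and S100A14 is lower in every one, while the groups overlap in the other 7 genes and shNT replicate 3 is the lowest shNT library in 7 of the 10.

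S100A9, the calprotectin subunit with the higher RNA level, stood at 27.8, 48.9, 31.6 and 48.4 normalized reads in the shNT libraries and at 150.0, 140.0, 132 and 102 in the shSRC1 libraries. Every shSRC1 library was above every shNT library. The means were 39.2 ± 11.05 and 131 ± 21 (SD, n = 4 each), a ratio of 3.34. The log2 fold change on log2(value + 1), the scale of all log2 fold changes given here, was 1.74 with a standard error of 0.22 (95% confidence interval 1.27 to 2.22, limma adjusted p = 8.02e-05). In RNA from whole cultures, a change in how many cells make a transcript and a change in its RNA per cell cannot be told apart.

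S100A8, its partner in calprotectin, stood at 3.71, 11.6, 12.997 and 6.28 normalized reads in shNT and at 36.1, 31.5, 54.5 and 50.4 in shSRC1. Behind them are 38 reads in all for shNT and 171 for shSRC1. The groups did not overlap, and the means were 8.63 ± 4.37 and 43.1 ± 11.1 (SD, n = 4 each), a ratio of 4.99. The log2 fold change was 2.29 with a standard error of 0.38 (95% confidence interval 1.49 to 3.09, limma adjusted p = 7.29e-04). The pseudocount of 1 lowers the log2 fold change of a gene at this level, and it was 1.85 with a pseudocount of 5. Both calprotectin genes passed the threshold in all alternative settings in which they were tested, with log2 fold changes of 1.85 to 2.65 for S100A8 in 18 settings and 1.597 to 1.86 for S100A9 in 19. S100A8 entered the test only through its shSRC1 libraries, where it is high, and most of these settings kept that set of tested genes. For S100A8 the settings are therefore a description of how its estimate moved. Within shSRC1, replicate 1 was highest for S100A9 and replicate 3 for S100A8.

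Neutrophils and monocytes make calprotectin in quantity, and their markers were measured in the same libraries. Of 14 neutrophil and monocyte markers, 8 stayed under 10 normalized reads in every library, ELANE was at 0 in all 8, and CSF3R reached at most 2.67 in shNT and 0.916 in shSRC1. None of the 3 that were tested, CD14, LYZ and CSF1R, passed the threshold (limma adjusted p of 0.744, 0.577 and 0.289). The summed level of the 14 was 53.8 to 124 in shNT and 62.7 to 96.3 in shSRC1, most of it on average from LYZ, CSF1R and CD14, and its part in the calprotectin result was not tested. Calprotectin is also made by squamous epithelium, and the 15 basal and squamous markers summed to 4075 to 5387 in shNT and 5419 to 6430 in shSRC1. Most of that sum came from SFN and KRT10, while LOR and SPRR1B were at 0 in every library and KRT14 stayed below 4 normalized reads. Of the 6 tested, TP63, the transcription factor gene of basal epithelium, rose from 55.5 ± 8.3 to 115 ± 16 and KRT10 rose by a log2 fold change of 0.32, while KRT16 fell by 1.25 on the log2 scale (limma adjusted p of 0.0011, 0.0325 and 0.0092). That is 50% called, against 23.2% of all tested genes. The part of these markers in the calprotectin result was not tested.

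Of 20 genes that surround calprotectin expression (transcription factors, interleukin receptors and genes often induced with it), 12 were tested, none rose and 2 fell, or 16.7% against 23.2% of all tested genes. Both were receptor genes for interleukin-6 signalling: IL6R fell from 438 ± 29 to 279.8 ± 13 and IL6ST from 2859 ± 429 to 1859.7 ± 277 normalized reads (SD, n = 4 each), log2 fold changes of -0.64 and -0.62 (limma adjusted p of 6.50e-04 and 0.0024). CEBPB, the gene of a transcription factor of myeloid and mammary cells, had a log2 fold change of 0.36 that did not pass (limma adjusted p = 0.0530). The median log2 fold change of the 12 was -0.08.

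S100A14, an epithelial S100 gene, had the largest fall of the 10. It stood at 487, 603, 403 and 569 normalized reads in the shNT libraries and at 127, 114, 143 and 129 in the shSRC1 libraries. The highest shSRC1 library was far below the lowest shNT library. The mean fell from 516 ± 89 to 128 ± 12 (SD, n = 4 each), to 24.9% of the shNT level. The log2 fold change was -1.99 with a standard error of 0.14 (95% confidence interval -2.29 to -1.69, limma adjusted p = 2.23e-07), and it ran from -2.10 to -1.91 over 19 alternative settings, past the threshold in each. S100A16, the neighbouring gene on the same strand, stood at 3851, 4478, 2708 and 4074 in shNT and at 3370, 3196, 3061 and 3181 in shSRC1. Its groups overlapped only through shNT replicate 3. Its log2 fold change was -0.21 with a standard error of 0.12 (limma adjusted p = 0.222), -0.37 without shNT replicate 3 (adjusted p = 0.0024) and -0.12 without shNT replicate 2 (adjusted p = 0.468).

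S100A13, which takes part in the release of proteins that lack a signal peptide, such as FGF1 and IL1A, stood at 3877, 4381, 3079 and 4269 in shNT and at 3011, 2962, 3094 and 3236 in shSRC1. The groups overlapped, because shNT replicate 3 lay inside the shSRC1 range. The mean fell from 3902 ± 589.7 to 3076 ± 120 (SD, n = 4 each), a log2 fold change of -0.33 with a standard error of 0.10 (95% confidence interval -0.55 to -0.11, limma adjusted p = 0.0320). Leaving out any of shNT replicates 1, 2 and 4, or of shSRC1 replicates 1, 2 and 3, ended the call, with adjusted p-values of 0.0671, 0.0777, 0.0900, 0.0759, 0.0803 and 0.0625. The adjusted p was 5.62e-04 without shNT replicate 3, where the log2 fold change was -0.44.

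S100A1, an S100 gene outside the 10 that is best known from heart and skeletal muscle, lies beside S100A13 on the other strand, and it fell too. It stood at 236, 204, 256 and 201 normalized reads in shNT and at 115, 78.7, 107 and 119 in shSRC1, with no overlap. The log2 fold change was -1.10 with a standard error of 0.16 (limma adjusted p = 2.80e-04). In the GENCODE 29 annotation the exons of S100A13 and S100A1 share 235 bases on opposite strands, 10.6% of the exonic bases of S100A13 and 7.76% of those of S100A1. Whether the library kit kept strand is not stated, so reads from the shared bases cannot be told apart. S100A13 also shares 536 exonic bases (24.2%) with AL162258.1 on its own strand, and S100A1 shares 320 (10.6%) with AL162258.2 on the other strand. How the authors' counting treated these bases is not given, and the values of both genes are uncertain.

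S100P, which binds ezrin and RAGE, stood at 325, 377, 289.7 and 378 in shNT and at 294, 261, 206 and 267 in shSRC1. Only shNT replicate 3 and shSRC1 replicate 1 overlapped, at 289.7 and 294. The mean fell from 342 ± 43 to 257 ± 37 (SD, n = 4 each), a log2 fold change of -0.41 with a standard error of 0.14 (95% confidence interval -0.71 to -0.12, limma adjusted p = 0.0400). The call ended with no filter on low values (adjusted p = 0.0712), without shNT replicates 1, 2 or 4 (0.0651, 0.0853 and 0.102) and without shSRC1 replicates 2, 3 or 4 (0.0693, 0.124 and 0.0646). EZR, the ezrin gene, stood at 12109 ± 1086 and 11770.1 ± 322 (SD, n = 4 each), a log2 fold change of -0.04 that did not pass (limma adjusted p = 0.778).

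**Figure D2:**
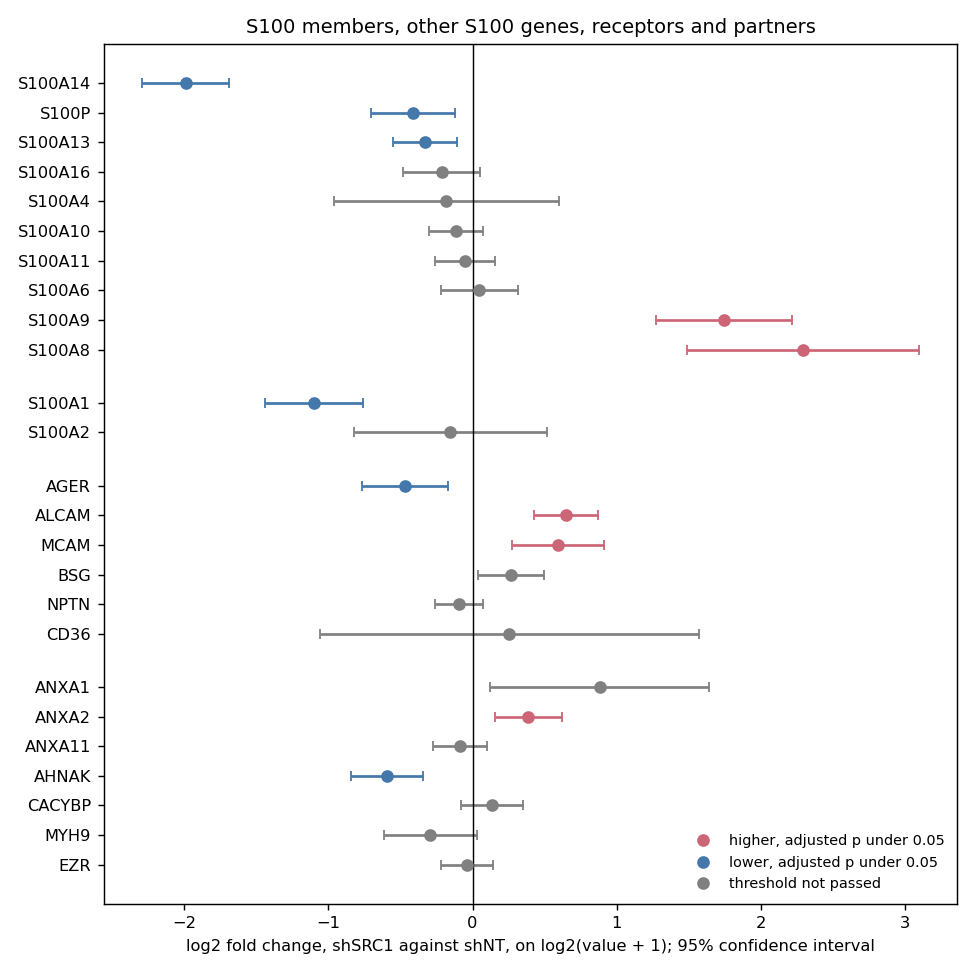
Log2 fold changes of shSRC1 against shNT on log2(value + 1) with 95% confidence intervals from limma (horizontal axis), for the 10 S100 genes, 2 other S100 genes, receptors and binding partners (rows). S100A8 and S100A9 stand at 2.29 and 1.74 and S100A14 at -1.99, and the S100A14 interval overlaps that of no other S100 gene drawn.

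S100A11, the most abundant of the 10, stood at 26938, 29759, 22197 and 27639 normalized reads in shNT and at 27200, 25505, 23954 and 25694 in shSRC1. The shSRC1 libraries all lay within the shNT range. The log2 fold change was -0.05 with a 95% confidence interval of -0.26 to 0.16 (limma adjusted p = 0.731). ANXA1, the gene of its partner annexin A1, was low, at 14.8, 48.0, 37.1 and 54.7 in shNT and 88.3, 63.0, 72.7 and 44.0 in shSRC1, and its log2 fold change of 0.88 did not pass (limma adjusted p = 0.0857). Without shNT replicate 1 it was 0.49 (adjusted p = 0.208), and without shNT replicate 4 it was 1.09 and passed (adjusted p = 0.0463).

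S100A10, which with annexin A2 forms a complex at the inner face of the plasma membrane, stood at 20521, 21863, 17360.0 and 20550.5 in shNT and at 19405, 17919, 17863 and 18657 in shSRC1. The groups overlapped through shNT replicate 3 alone. The log2 fold change was -0.12 (95% confidence interval -0.30 to 0.07, limma adjusted p = 0.349), -0.18 without shNT replicate 3 (adjusted p = 0.0386) and -0.07 without shNT replicate 2 (adjusted p = 0.598). ANXA2 rose from 26509.8 ± 4261 to 34333 ± 1421 (SD, n = 4 each), a log2 fold change of 0.39 (limma adjusted p = 0.0205), a call lost without shSRC1 replicates 2 or 4 (adjusted p of 0.0543 and 0.0579). AHNAK, which encodes a giant scaffold protein held at the membrane by this complex, fell from 58809 ± 9899.9 to 38684 ± 3904 (SD, n = 4 each), a log2 fold change of -0.59 (limma adjusted p = 0.0028).

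S100A6, or calcyclin, stood at 4831, 5755, 3511 and 5381 in shNT and at 5093, 4955, 4674 and 5083 in shSRC1. All shSRC1 libraries lay within the shNT range. Its log2 fold change was 0.05 (95% confidence interval -0.22 to 0.31, limma adjusted p = 0.808). Its partners CACYBP, which takes its name from calcyclin, and ANXA11 had log2 fold changes of 0.14 and -0.09 (limma adjusted p of 0.335 and 0.486). S100A4, known as a marker of fibroblasts and metastatic cells, was close to the floor of the data, at 12.99, 16.9, 25.1 and 16.1 in shNT and 9.49, 13.996, 28.2 and 13.7 in shSRC1. Replicate 3 was highest in both groups, and the log2 fold change was -0.18 with a 95% confidence interval of -0.96 to 0.60 (limma adjusted p = 0.747). Leaving out 1 library moved it between -0.47 (without shSRC1 replicate 3) and 0.026 (without shSRC1 replicate 1), with -0.31 when shNT replicate 1 was dropped and -0.01 when shNT replicate 3 was. Of 10 fibroblast markers 5 were tested and none passed, and COL1A1 made up most of their sum of 1643 to 2194 in shNT and 1452 to 1979 in shSRC1. MYH9, the nonmuscle myosin heavy chain bound by S100A4, had a log2 fold change of -0.29 (limma adjusted p = 0.172).

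The abundant S100 genes varied together from library to library. In shNT replicate 3, S100A6, S100A10, S100A11, S100A13 and S100A16 lay 0.20 to 0.46 below their shNT means on the log2 scale, and in shNT replicate 2 they lay 0.13 to 0.27 above. In the shSRC1 libraries the same 5 genes stayed between -0.09 and 0.09 of their means. The median of 29 ribosomal protein genes lay 0.45 below its shNT mean in shNT replicate 3 (a difference of -0.45) and 0.22 above it in shNT replicate 2. Of those 29 genes, 26 rose in shSRC1 and none fell, or 89.7% called against 23.2% of all tested genes, with a median log2 fold change of 0.50. Measured from the mean of all 8 libraries, their median was -0.18, -0.02, -0.69 and -0.09 in shNT replicates 1 to 4. In shSRC1 replicates 1 to 4 it was 0.28, 0.22, 0.20 and 0.27, so shNT replicate 3 adds to this fold change. The part of this library difference in the S100 results was not tested. Without shNT replicate 3, S100A8, S100A9, S100A14 and S100P had log2 fold changes of 2.51, 1.66, -2.10 and -0.49 and passed, and S100A11, S100A6 and S100A4 had -0.14, -0.10 and -0.01 and did not (limma adjusted p of 0.142, 0.341 and 0.988). In that setting 2 of the 10 genes were higher and 5 lower, with S100A10 and S100A16 added to the latter, against 21.3% of all tested genes called. Dropping any of shNT replicates 1, 2 and 4 or of shSRC1 replicates 2 and 3 left S100A14 as the only one of the 10 called lower. Dropping shSRC1 replicate 1 or 4 left 2 called lower. Of all tested genes, 17.7%, 24.6% and 18.9% were called without shNT replicates 1, 2 and 4. Without shSRC1 replicates 1 to 4 these shares were 17.1%, 16.2%, 18.3% and 18.1%.

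**Figure D3:**
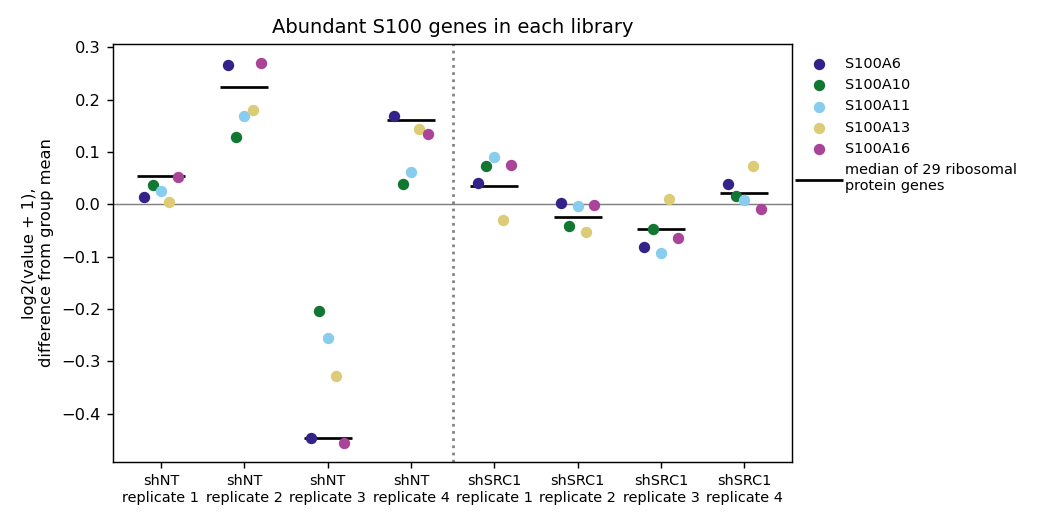
Difference of log2(value + 1) from the mean of its own group (vertical axis) for 5 abundant S100 genes in each of the 8 libraries (horizontal axis), with black bars for the median of 29 ribosomal protein genes. The 5 genes and the ribosomal median all lie lowest in shNT replicate 3, at -0.46 to -0.20, and stay near 0 in the shSRC1 libraries.

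The genes are described here in their order along chromosome 1, a description made after their values were seen and not a test of position. S100A9 and S100A8 lie close together with only S100A12 between them, which had 0 to 3.80 normalized reads in any library, and both rose. S100A14, S100A13 and S100A1 are consecutive at the far end of the cluster, and all 3 fell, although the S100A13 call was lost in 6 of 19 alternative settings. S100A13 and S100A1 share exonic bases on opposite strands, so their falls are not known to be separate. Between these lie S100A6, S100A4, S100A2 and S100A16, which did not pass the test, and S100A7A, S100A7L2, S100A7, S100A5 and S100A3, which had too few reads to test. Genes around the cluster were counted in the same fit. Of 28 tested genes within 10 tested genes of a chromosome 1 member, 2 rose and 2 fell, and their median log2 fold change was 0.08. That is 14.3% called, against 23.2% of all tested genes. The risers were ILF2, by 0.37, and the antisense transcript FLG-AS1, and the fallers were S100A1 and TCHH. Over all 1873 tested genes of chromosome 1 the median was 0.05, with 245 higher and 159 lower, or 21.6% called. Around S100P on chromosome 4, 4 of 20 tested genes rose (20% called) and none fell, with a median of 0.20. S100P itself stood at -0.41, a call lost in 7 of 19 alternative settings.

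**Figure D4:**
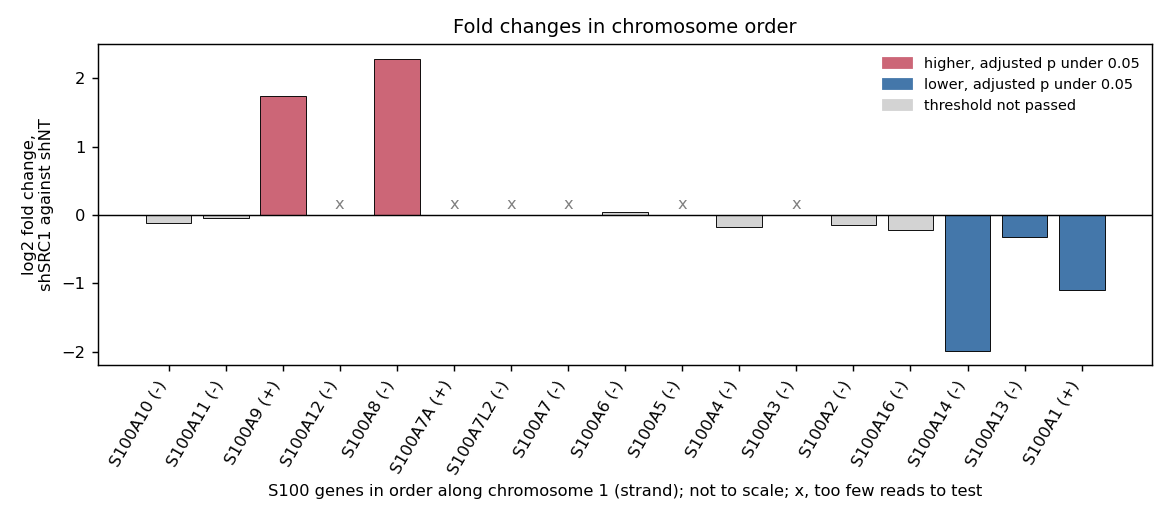
Log2 fold changes of shSRC1 against shNT (vertical axis) for the 17 S100 genes of chromosome 1 in chromosome order, with the strand in brackets (horizontal axis, not to scale); an x marks a gene with too few reads to test. S100A9 and S100A8 rise on the left, at 1.74 and 2.29, and S100A14, S100A13 and S100A1 fall at the right end, at -1.99, -0.33 and -1.10.

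Of the 11 other S100 genes checked, only S100A1 and S100A2 had enough reads to test, and S100A2, an S100 gene of basal epithelium, did not pass, with means of 19.3 ± 5.3 and 17.1 ± 3.96 normalized reads (SD, n = 4 each, limma adjusted p = 0.751). S100A7, S100A7A, S100A7L2 and S100Z had no read in any library. The other 5, S100A3, S100A5, S100A12, S100B and S100G, stayed under 5 normalized reads in every library. Fused-type S100 genes encode large structural proteins of skin and hair that begin with an S100 domain. Of 7 such genes 3 were tested. TCHH, the trichohyalin gene, fell from 1092 ± 132 to 729 ± 51 (SD, n = 4 each), a log2 fold change of -0.58 (limma adjusted p = 0.0014). FLG and HRNR had log2 fold changes of 0.35 and 0.69 that did not pass (limma adjusted p of 0.179 and 0.0914), while FLG2 and TCHHL1 were too low to test and RPTN and CRNN had no read.

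Of 7 receptors reported for extracellular S100 proteins 6 were tested, and 2 rose and 1 fell, beside 23.2% called among all tested genes. AGER, the gene of RAGE, stood at 314, 254, 338 and 257 in shNT and at 223, 212, 234 and 170.5 in shSRC1, with no overlap. Its mean fell from 291 ± 42 to 209.9 ± 28 (SD, n = 4 each), a log2 fold change of -0.47 with a standard error of 0.14 (limma adjusted p = 0.0278). The adhesion receptors ALCAM and MCAM rose, ALCAM from 1739.7 ± 174 to 2737 ± 362 and MCAM from 199 ± 34 to 300.3 ± 44 (SD, n = 4 each), log2 fold changes of 0.65 and 0.59 (limma adjusted p of 6.18e-04 and 0.0109). BSG, the abundant basigin gene, had higher values in every shSRC1 library than in any shNT library, but its log2 fold change of 0.26 did not pass (limma adjusted p = 0.0855). NPTN had a log2 fold change of -0.09 and CD36, at 8.10 ± 5.73 and 9.89 ± 5.79 normalized reads, one of 0.25, and neither passed (limma adjusted p of 0.409 and 0.792). TLR4, a receptor of calprotectin, was too low to test, at 1.15 ± 1.17 and 0.902 ± 0.715 (SD, n = 4 each).

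Of 26 binding partners 21 were tested, and 2 rose and 4 fell, or 28.6% against 23.2% of all tested genes. Besides ANXA2 and AHNAK, the scaffold gene IQGAP1 fell from 16873 ± 523 to 13459.8 ± 1123 and the acid-sensing channel gene ASIC1 from 496 ± 45 to 376 ± 21 (SD, n = 4 each), log2 fold changes of -0.33 and -0.40 (limma adjusted p of 0.0113 and 0.0140). The median log2 fold change of the 21 was -0.06.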

How the data were processed

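Poly(A)-selected RNA of 4 shNT and 4 shSRC1 libraries was compared, with groups and replicate numbers from the labels. The authors deposited a table of 63677 genes in which each value is a signal, a read count divided by its library's size factor; per the submitters' processing notes, the tools were HTSeq 0.6.1, TopHat2 2.0.12, DESeq and DESeq2, on build GRCh37. The sources used here do not give the annotation or the counting options. Every value was a whole multiple of its library's step within 0.001 reads (100.0% of values), so reads were recovered. A gene with 3 reads stands at 2.67 to 5.25 normalized reads.

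The test was limma 3.58.1 (R 4.3.3; trend, robust) on log2(value + 1), two-sided, Benjamini-Hochberg adjusted over 19559 genes that reached 10 normalized reads in 4 or more libraries. It was tested on simulated data in which genes varied independently, without the shared library differences seen here. edgeR 4.0.16 and DESeq2 1.42.0 were run on the recovered reads as alternatives. The 10 genes and the 13 lists (206 entries; 204 of 205 genes matched by symbol, 1 by another symbol) were chosen with earlier results of these data known. Named beside the 10 genes were all listed S100, fused-type and receptor genes, up to 4 genes past the threshold in each other list by smallest adjusted p, partners of the 10 genes fixed by name, and NCOA1. Other genes named (ESR1, CEBPB, KCNK3, ILF2, FLG-AS1 and marker genes below the threshold) were chosen after their values were seen. GENCODE 29 (GRCh38) gave gene order, exonic length, transcript length and GC content by Ensembl identifier, the last pair for 96.1% of tested genes; as the build differs, no coordinates are given from it. Intervals cover the spread between libraries.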

Additional observations from a re-analysis of the deposited data

How the results depend on the processing

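S100A8, S100A9, S100A14, S100A1, NCOA1 and AHNAK kept direction and passed the threshold in every alternative run in which they were tested (scaling by edgeR TMM or upper quartile, other filters and pseudocounts, the replicate block, each library left out, shNT replicate 3 and shSRC1 replicate 2 left out together, edgeR and DESeq2 on recovered reads, and a correction for transcript length and GC content). S100A8 entered most of these runs only through its shSRC1 libraries. S100A8 and S100A4 were not tested with a minimum of 50 normalized reads. Fewer genes were tested in that run, so 1 of the 10 was higher in place of 2, and 28.2% of tested genes were called. Leaving out 1 library gave 3 to 7 genes changed of the 10 in place of 5, with 2 higher each time and 1 to 5 lower. In these runs 16.2% to 24.6% of all tested genes were called, against 23.2% with all libraries. Lower genes of all tested numbered 1453 to 2291 in place of 2194. Log2 fold changes near 0 changed sign: S100A6 to -0.10 without shNT replicate 3 and to -0.10 without shNT replicate 3 and shSRC1 replicate 2, S100A4 to 0.026 without shSRC1 replicate 1 and to 0.024 without those 2 libraries, and S100A11 and EZR to 0.0051 and 0.00054 without shNT replicate 2. With 1 library left out, S100A4 ranged from -0.47 to 0.026 and S100A11 from -0.14 to 0.0051. The cause was not tested. With a correction of each library for transcript length and GC content, S100A13 and S100P stood at -0.41 and -0.50 (limma adjusted p of 0.0034 and 0.0108). The labels do not say what a replicate number shares. Deviations of same-numbered libraries correlated across genes at 0.24, -0.01, 0.13 and 0.14 for numbers 1 to 4, so 3 of the 4 pairs exceeded 0.1. A pair of unlike numbers, shNT replicate 2 and shSRC1 replicate 4, exceeded it too, at 0.13. Replicates 1, 3 and 4 correlated best with their own number in both groups, and replicate 2 did not. What same-numbered libraries share was not tested. The main test did not treat the samples as pairs, and the replicate block was run as an alternative. With the replicate block 5 of the 10 genes passed, 2 higher and 3 lower, and 6398 genes in all against 4538 without it, and MYH9 at -0.29 passed as well (limma adjusted p = 0.0316). For S100A8 and S100A4 the small number of reads limits precision, with 38 and 78 reads in the shNT libraries together.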

Other observations

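Of 32 genes of EF-hand proteins outside the S100 family 28 were tested, and 3 rose and 1 fell (14.3%, against 23.2% of all tested genes). PVALB, the parvalbumin gene, rose from 83.8 ± 24.2 to 182 ± 14 normalized reads (SD, n = 4 each), a log2 fold change of 1.15 with a standard error of 0.19 (limma adjusted p = 7.64e-04). CALML5, a calmodulin-like gene of differentiating skin, and PEF1 rose by log2 fold changes of 0.86 and 0.36 (limma adjusted p of 0.0246 and 0.0179). CIB2, a calcium- and integrin-binding protein gene, stood at 38.05, 43.5, 42.7 and 75.4 in shNT and at 10.4, 13.996, 15.4 and 14.7 in shSRC1, and its log2 fold change was -1.76 with a standard error of 0.29 (limma adjusted p = 6.63e-04).

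KCNK3, a potassium channel gene whose product is bound by S100A10, was too low for the test, at 0.928, 0.889, 0.928 and 8.07 normalized reads in shNT and 13.3, 8.75, 12.7 and 8.25 in shSRC1.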
